A study of Homo sapiens with 12 samples.

Results

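The RNA of human induced neurons homozygous for an allele of LLPH called Nterm (Nterm/Nterm) was compared with that of neurons wild type at LLPH (wt/wt). All transcripts with enough counts to test were included, which left 14659 of the 19972 transcripts of the deposited count table. Of these, 10853 carried a gene name and 3806 did not. Each genotype had 3 RNA libraries, so 6 of the 12 libraries of the series entered the comparison, and the other 6 are ribosome footprint libraries of both genotypes. Both genotypes derive from H1, a human embryonic stem cell line, and both were turned into neurons by overexpressing the transcription factor Ngn2, so neither is free of that treatment. Cells grew without added glia to day in vitro 14. Their medium held doxycycline at 2 µg/mL and cytosine arabinoside (AraC), which kills dividing cells, at 4 µM, from a full change on day 5 and a 50% change on day 10. Cells were collected in cycloheximide, a translation inhibitor, at 100 µg/mL, and polyA RNA was taken from cytoplasmic lysates, so RNA held in nuclei was not sampled. What the Nterm allele changes in LLPH, how many clones carry it, and whether the replicates are separate cultures are not stated in the labels used here. The p-values therefore measure the spread between these libraries, which may be technical, and a difference between clones cannot be told apart from a difference between alleles. For the footprint samples, which appear below only beside RNA values, title and genotype tag contradict each other, and the titles were followed. Titles and tags of the RNA samples name the same genotypes.

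LLPH encodes a small nucleolar protein, the human relative of a factor first described in learning in the sea slug Aplysia, and it has been linked to assembly of the large ribosomal subunit. Forced Ngn2 expression drives stem cells into neurons within days. As stem cells become neurons they switch on cytoskeletal, vesicle and ion channel genes, and switch off genes of matrix, epithelium and the cell cycle. An RNA level in such a culture is an average over all its cells. In these bulk libraries, fewer cells of a type and less RNA per cell cannot be told apart.

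The RNA libraries held between 18944427 and 25089790 counts. On the first principal component of transcripts averaging at least 5 CPM (counts scaled to a common library size), which held 69.4% of the variance, the wt/wt libraries lay at -15.6, -14.8 and -8.68 and the Nterm/Nterm libraries at 10.5, 8.28 and 20.3. The genotypes did not overlap there, with wt/wt replicate 3 the wild-type library nearest to Nterm/Nterm and Nterm/Nterm replicate 3 the farthest from wt/wt. Over all 14659 transcripts tested, the first component held 45.0% of the variance, and the genotypes did not overlap on it either. The biological coefficient of variation fitted across transcripts was 5.31%. Neuron markers were abundant in every library: the summed level of 14 of them was 15435 to 16445 CPM in wt/wt and 17428 to 18694 CPM in Nterm/Nterm. Of these markers, 8 were called higher, among them the pan-neuronal genes DCX, MAP2, NEFL, NEFM, STMN2, SYT1 and TUBB3, and PRPH, a neurofilament-like gene of peripheral neurons, was called lower. By the rule given below, 7.25% of all transcripts were called higher, and 29.5% of those averaging over 500 CPM. The count of higher markers was 4 without wt replicate 1 and 5 without wt replicate 2. Calls for DCX and PRPH were lost without wt replicate 1, that for STMN2 without wt replicate 1 or wt replicate 2, and those for MAP2 and TUBB3 without any of wt replicate 1, wt replicate 2, Nterm replicate 1 or Nterm replicate 3. TUBB3 was also not called with a filter of 5 CPM (adjusted p = 0.0526) or with counts thinned to the smallest library (adjusted p = 0.0503).

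LLPH itself, the gene that the genotypes name, did not pass the test for RNA. Its level was 27.2, 28.7 and 27.4 CPM in wt/wt and 30.8, 31.7 and 29.4 CPM in Nterm/Nterm, or 27.8 ± 0.807 to 30.6 ± 1.14 CPM (SD, n = 3; log2 change 0.14, SE 0.06, adjusted p = 0.135). All 3 Nterm/Nterm values lay above all 3 wt/wt values, but the difference did not pass after adjustment over all transcripts. Footprints on LLPH changed by a log2 of -1.60 (SE 0.19, adjusted p = 1.77e-05) over the same genotypes. Since the altered part of the gene is not given, neither value checks the labels.

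Across the transcriptome, RNA differences between the genotypes were many and mostly small. A transcript was called when edgeR's quasi-likelihood test gave a Benjamini-Hochberg adjusted p under 0.05, and a log2 change is Nterm/Nterm minus wt/wt. By that rule 2624 of 14659 transcripts were called (17.9%), of which 1063 were higher (7.25%) and 1561 lower (10.6%) in Nterm/Nterm. Called changes had a median size of 0.32 (log2), and 140 of the called transcripts changed more than 2-fold, 26 upward and 114 downward. Without regard to any test, the CPM of the genotypes did not overlap for 5304 transcripts (36.2%). The median log2 change over all transcripts was -0.000386, so increases and decreases are relative to a centre near 0.

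The number of calls depended on which libraries were used. Leaving out wt/wt replicate 1 gave 841 calls, leaving out wt/wt replicate 2 gave 964 and leaving out Nterm/Nterm replicate 3 gave 1729. With wt/wt replicate 3, Nterm/Nterm replicate 1 or Nterm/Nterm replicate 2 left out, the counts were 2662, 1986 and 2851. With replicate number as a block in the fit, 4504 transcripts were called, and 2623 of the 2624 were among them. A set of 752 transcripts, 204 higher and 548 lower, was called in all 6 of the fits that left out 1 library. Each gene named below as higher or lower was called in all 6 unless the library whose removal ended the call is named, and for gene lists the fits that moved a count by more than 1.5 times are given for most counts.

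**Figure D1:**
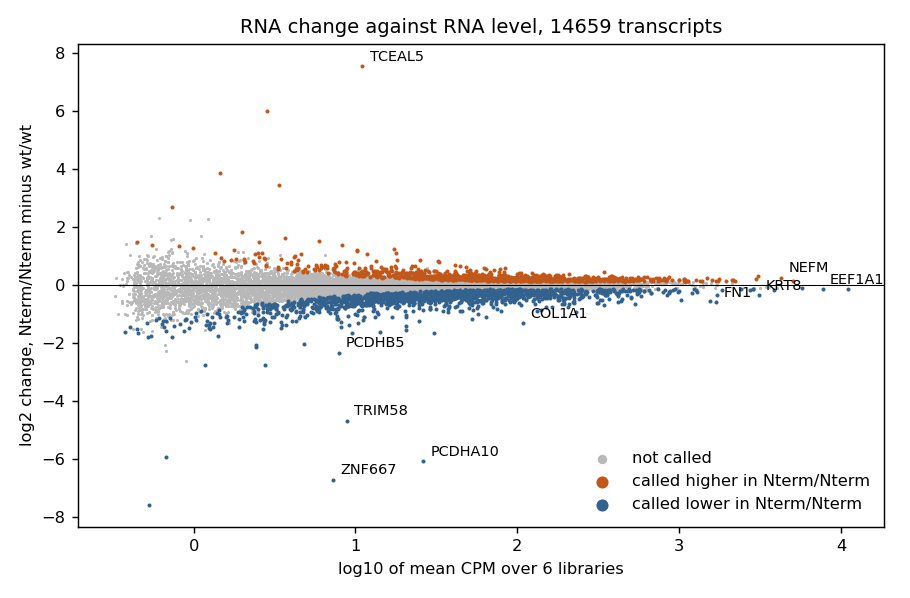
Log2 change of RNA (Nterm/Nterm minus wt/wt) against the log10 of the mean CPM over the 6 libraries, 1 point for each of 14659 transcripts, coloured by call. Most called points lie close to 0, and among named genes ZNF667, PCDHA10, TRIM58 and PCDHB5 lie far below the rest and TCEAL5 far above.

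Calls shifted with abundance. Among the 193 transcripts averaging over 500 CPM, 57 were higher and 47 lower, so 53.9% were called. Between 100 and 500 CPM, 355 of 2296 were higher and 280 lower. Between 20 and 100 CPM the order was reversed, with 469 of 6026 higher and 660 lower. At 5 to 20 CPM, 133 of 3312 were higher and 405 lower, and under 1 CPM only 31 of 856 transcripts were called (3.62%). Called changes were smaller at high levels in both directions: their median was 0.18 upward and -0.20 downward over 500 CPM, against 0.44 and -0.50 at 5 to 20 CPM. A count of 1000 carries a counting error of 3.16% and one of 100 an error of 10%. What made the size of called changes differ with level was not tested.

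A few genes differed almost as present against absent. ZNF667, which encodes a KRAB zinc finger repressor, had 357, 291 and 385 counts in the wild-type libraries against 0, 0 and 8 in Nterm/Nterm (log2 change -6.70, SE 0.37, adjusted p = 7.62e-07). Its summed counts differed by a ratio of 108 (95% counting interval 54.8 to 252). Only Nterm/Nterm replicate 3 held any ZNF667 read among the Nterm/Nterm libraries. Without it the fitted change was -11.31, a value set by edgeR's prior count where a genotype has no reads. PCDHA10, an alpha protocadherin that helps give a neuron its surface identity, had 1217, 1140 and 1351 counts in the wild-type libraries against 12, 16 and 18 in Nterm/Nterm (log2 change -6.07, SE 0.12, adjusted p = 1.29e-11), a ratio of 67.7 (counting interval 50.6 to 92.6). TRIM58, a ubiquitin ligase best known from red cell maturation, had 444, 337 and 446 counts in the wild-type libraries against 14, 16 and 10 in Nterm/Nterm (log2 change -4.67, SE 0.17, adjusted p = 1.29e-08), a ratio of 25.8 (counting interval 18.8 to 36.2). These 3 genes had low but non-zero counts in at least 1 Nterm/Nterm library, and no Nterm/Nterm library came near a wt/wt one. PCDHB5, a beta protocadherin, was lower by less, at 311, 266 and 368 counts in the wild-type libraries against 33, 59 and 65 in Nterm/Nterm (log2 change -2.33, SE 0.18, adjusted p = 2.11e-05). In the other direction, TCEAL5, an X-linked relative of a transcription elongation factor gene, had 4, 1 and 3 counts in the wild-type libraries against 467, 439 and 412 in Nterm/Nterm (log2 change 7.55, SE 0.22, adjusted p = 1.33e-09), a ratio of 196 (counting interval 99.3 to 455). Wild-type neurons thus held 8 TCEAL5 reads in all 3 libraries together.

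The neighbours of these genes, in the gene order of RefSeq assembly GRCh38.p14, moved differently from case to case. They were looked up after the values of the central gene were seen, and any tested gene lying next in that order counts as a neighbour. On chromosome 19, ZNF667 stood beside ZNF471 (-1.55) and ZFP28 (1.09), both zinc finger genes of the same cluster. ZNF471 was lower, at 29.4, 30.9 and 32.0 CPM in wt/wt and 11.1, 9.56 and 10.8 CPM in Nterm/Nterm, while ZFP28, the next gene, was higher, at 9.97, 12.8 and 11.6 CPM in wt/wt and 24.8, 21.7 and 26.4 CPM in Nterm/Nterm. In neither did the genotypes overlap. Of the flanking zinc finger genes, ZNF583 was higher at 0.36, a call lost without wt replicate 1 or without wt replicate 2 or without Nterm replicate 1 or without Nterm replicate 3, and ZNF470 was at 0.19 (adjusted p = 0.068, not called). In the alpha protocadherin cluster, PCDHA12 was higher at 0.64 (35.3, 34.1 and 34.0 CPM in wt/wt and 51.9, 54.9 and 54.9 CPM in Nterm/Nterm), and PCDHA11, next to PCDHA10, was at -0.11 (adjusted p = 0.339, not called). The 3 tested genes on each side of TRIM58 and of TCEAL5 were not called, including BEX2 at 0.05 and TCEAL8 at 0.03 beside TCEAL5. Alpha protocadherins share their last exons with each other, as gamma protocadherins do, and the handling of reads that match several transcripts is not stated in the labels, which makes values of single members uncertain.

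**Figure D2:**
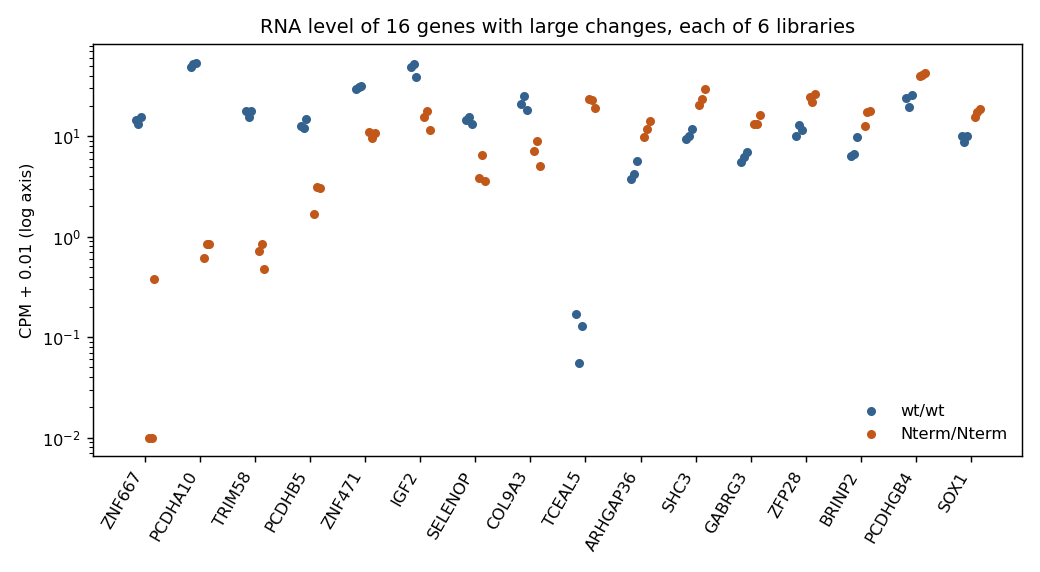
RNA level of 16 genes in each of the 6 libraries, as CPM plus 0.01 on a log axis, with wt/wt in blue and Nterm/Nterm in orange. The genotypes do not overlap for any of the 16, and ZNF667 is at 0 reads in 2 Nterm/Nterm libraries.

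Clustered protocadherins gave calls in both directions. Among the alpha genes tested, 3 of 6 were higher (PCDHA2, PCDHA4 and PCDHA12) and PCDHA10 was lower. The calls of PCDHA2 at 0.17 and PCDHA4 at 0.26 were lost without wt replicate 1 or wt replicate 2, and that of PCDHA2 also without Nterm replicate 1 or Nterm replicate 3. Among the beta genes, PCDHB5, PCDHB16 at -0.79 and PCDHB9 at -0.29 were lower, PCDHB9 not without wt replicate 2. PCDHB2 was higher at 0.29, as was PCDHB14 at 0.36, a call lost without wt replicate 1 or without wt replicate 2 or without Nterm replicate 1. Of 6 gamma genes, PCDHGB4 was higher, with 23.9, 19.4 and 25.5 CPM in wt/wt and 39.9, 41.1 and 42.9 CPM in Nterm/Nterm (log2 change 0.85, SE 0.09, adjusted p = 0.000226). PCDHGA10 was lower at -0.29, a call of edgeR that stood only with all libraries or without wt replicate 3, and that neither DESeq2 nor limma-voom made.

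Among genes lying head to head, 2 pairs were lower in both members. PAAF1, a proteasome assembly factor, fell from 47.9 ± 0.671 to 28.2 ± 1.09 CPM (log2 change -0.77, SE 0.06, adjusted p = 1.47e-05), and COA4, a mitochondrial assembly factor, fell from 22.5 ± 1.10 to 15.6 ± 1.26 CPM (log2 change -0.54, SE 0.08, adjusted p = 0.00161). The pair lie head to head on chromosome 11. MRPL48, the next gene, was lower at -0.43, though not without wt replicate 1, and UCP2 on the other side was at -0.20 (adjusted p = 0.108, not called). The collagen IV genes COL4A1 and COL4A2, which encode the main chains of basement membrane collagen, also lie head to head and were lower by -0.74 and -0.60 on the log2 scale. COL4A1 was at 271, 274 and 227 CPM in wt/wt and 171, 173 and 118 CPM in Nterm/Nterm, and with a robust variance prior in edgeR it was not called (adjusted p = 0.0554). The stretch between the 2 start sites of each pair is shown because both members of the pair fell together, from RefSeq assembly GRCh38.p14 on the plus strand, with each CG in capitals.
COA4 and PAAF1 (chr11:73876847-73876998, plus strand): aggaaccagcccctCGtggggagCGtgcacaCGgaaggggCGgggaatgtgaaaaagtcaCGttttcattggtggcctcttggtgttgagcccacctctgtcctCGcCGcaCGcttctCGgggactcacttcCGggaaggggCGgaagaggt
COL4A1 and COL4A2 (chr13:110307158-110307283, plus strand): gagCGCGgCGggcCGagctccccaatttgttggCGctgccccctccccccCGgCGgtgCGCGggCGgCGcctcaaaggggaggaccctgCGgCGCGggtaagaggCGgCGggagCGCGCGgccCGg
The first stretch holds 11 CG dinucleotides in 152 bases (61.8% G or C) and the second 20 in 126 bases (80.2% G or C). Of 258 head-to-head pairs within 1000 bases of each other with both genes tested, 6 had both members called, 49 had 1 called and 203 had neither. Counted by member, 11.8% were called, beside 20.6% of named transcripts, and nothing is read from the pairs. Of the 6, the 2 pairs shown were lower in both members, 3 were higher in both and SDF4 and B3GALT6 went opposite ways. The higher pairs included HNRNPA2B1 at 0.14, an RNA-binding protein, with CBX3 at 0.16, a heterochromatin protein. Neither of these was called without wt replicate 1 or wt replicate 2, and HNRNPA2B1 also not without Nterm replicate 1 or Nterm replicate 3.

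The largest named decreases after these were in genes of several kinds. SELENOP, the plasma selenium carrier, was at 14.6, 15.6 and 13.1 CPM in wt/wt and 3.84, 6.51 and 3.55 CPM in Nterm/Nterm (log2 change -1.65, SE 0.18, adjusted p = 0.000279). IGF2, an imprinted fetal growth factor, was at 48.8, 52.1 and 38.8 CPM in wt/wt and 15.4, 18.0 and 11.4 CPM in Nterm/Nterm (log2 change -1.64, SE 0.14, adjusted p = 5.42e-05). COL9A3, a chain of cartilage collagen IX, was at 21.1, 25.1 and 18.1 CPM in wt/wt and 7.12, 8.87 and 5.00 CPM in Nterm/Nterm (log2 change -1.62, SE 0.17, adjusted p = 0.000226). In each every Nterm/Nterm library lay below every wt/wt library. Decreases of similar size were seen in the neighbouring sulfotransferase genes SULT1C4 (-1.44) and SULT1C2 (-1.29), whose sequences are alike, and in MXRA8, a matrix remodelling receptor (-1.40). FBLN2, which encodes the matrix protein fibulin 2, was at -1.37, MRC2, a collagen uptake receptor, at -1.22, and MMP9, a matrix metalloproteinase, at -1.16. SDHAF4, an assembly factor of respiratory complex II, was at 15.7, 13.3 and 15.1 CPM in wt/wt and 7.72, 6.67 and 3.45 CPM in Nterm/Nterm (log2 change -1.32, SE 0.20, adjusted p = 0.00154), and the 3 tested genes on each side of it were not called. NSMCE1, a subunit of the SMC5/6 DNA repair complex, was at 10.5, 10.8 and 9.66 CPM in wt/wt and 5.05, 4.78 and 5.00 CPM in Nterm/Nterm (log2 change -1.06, SE 0.11, adjusted p = 0.000244), with an SD of 0.143 CPM in Nterm/Nterm. Unlike around SDHAF4, some of the 3 tested genes on each side of NSMCE1 and of SELENOP were called.

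The largest named increases after TCEAL5 were smaller and were also of several kinds. ARHGAP36, an inhibitor of protein kinase A, was at 3.78, 4.16 and 5.63 CPM in wt/wt and 9.79, 11.9 and 14.1 CPM in Nterm/Nterm (log2 change 1.40, SE 0.17, adjusted p = 0.000468). SHC3, an adaptor of neurotrophin receptors found mainly in neurons, was at 9.41, 10.1 and 11.7 CPM in wt/wt and 20.5, 23.3 and 29.3 CPM in Nterm/Nterm (log2 change 1.23, SE 0.13, adjusted p = 0.000226). GABRG3, a subunit of the GABA-A receptor channel, was at 5.55, 6.18 and 7.03 CPM in wt/wt and 13.1, 13.3 and 16.4 CPM in Nterm/Nterm (log2 change 1.19, SE 0.13, adjusted p = 0.000244). In all 3 the genotypes were apart, and Nterm/Nterm replicate 3 was the highest library. BRINP2, which can slow cell division when expressed in neurons, was higher at 1.07, VWC2, a secreted BMP antagonist, at 0.88, and SOX1, a neural transcription factor, at 0.84. The peptide hormone receptors PRLHR and SSTR2 were higher at 0.81 and 0.71. Other increases of this rank included the adhesion genes PCDH19 (0.74), CNTN5 (0.66) and TENM2 (0.60), the glutamate receptor subunits GRIA3 (0.66) and GRIK2 (0.64), and RELN, which encodes the migration cue reelin (0.59). MAOA and DDC, which break down and make monoamine transmitters, were higher by 0.59 and 0.58. MAOA had narrow spreads, at 46.7, 51.6 and 49.9 CPM in wt/wt and 71.5, 75.7 and 75.6 CPM in Nterm/Nterm. GDNF, a neurotrophic factor, was at 12.4, 12.4 and 12.4 CPM in wt/wt and 19.3, 16.9 and 18.8 CPM in Nterm/Nterm (log2 change 0.57, SE 0.08, adjusted p = 0.00133). Of the 30 largest increases and 30 largest decreases among named genes with at least 5 CPM and no overlap of the genotypes, 59 were called in all 6 leave-out fits, which that choice favours. The exception, the bile acid carrier homologue SLC10A4 at 0.63, was not called without wt replicate 1 or wt replicate 2.

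Lists of genes were then counted against the background of 7.25% of transcripts called higher and 10.6% called lower. The lists were chosen with earlier results of these data known, so a share above the background is a description and not a test. Among named transcripts alone, from which the lists are drawn, those shares were 8.92% and 11.7%. The shares also shift with level. Over 500 CPM 29.5% of transcripts were called higher and 24.4% lower, and at 100 to 500 CPM 15.5% and 12.2%. At 5 to 20 CPM they were 4.02% and 12.2%. The background was not matched to the level of each list, so abundant lists exceed it more readily. Where a list below is said to have none higher or none lower in RNA, edgeR, DESeq2 and limma-voom each called 0 in that direction. In those lists 0 members had an unadjusted p under 0.05 in it either, except 1 p53 target and 3 small-subunit assembly factors.

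Genes of the extracellular matrix were lower as a group. Of 16 collagen genes tested, 14 were lower and none higher, with a median log2 change of -0.74, and the CPM of the genotypes did not overlap for 15. COL1A1, the main chain of fibrillar collagen I, was at 176, 169 and 119.5 CPM in wt/wt and 66.9, 73.8 and 46.8 CPM in Nterm/Nterm (log2 change -1.31, SE 0.15, adjusted p = 0.000446). COL1A2, its partner chain and far more abundant here, was at 1894, 1940.3 and 1643 CPM in wt/wt and 1319.5, 1369.8 and 1091 CPM in Nterm/Nterm (log2 change -0.54, SE 0.08, adjusted p = 0.00138). In both, wt/wt replicate 3 was the lowest wild-type library and Nterm/Nterm replicate 3 the lowest of all. COL22A1 was lower at -1.11, COL4A6 at -1.09 and COL18A1 at -0.94. Among 41 matrix glycoprotein, proteoglycan and basement membrane genes, 24 were lower and 3 higher, with a median of -0.42. FN1, which encodes fibronectin, was at 2129.9, 2223 and 1715 CPM in wt/wt and 1457, 1528 and 1074 CPM in Nterm/Nterm (log2 change -0.58, SE 0.12, adjusted p = 0.0063). With a robust variance prior in edgeR its adjusted p was 0.102, and it was not called. The laminin genes LAMA1 and LAMB1 were at -0.80 and -0.69, the fibrillin gene FBN1 at -0.74 and the perlecan gene HSPG2 at -0.85. The count of 3 higher members was 1 without wt replicate 1, 1 without wt replicate 2 and 6 with replicate number as a block. Of 19 genes for collagen maturation and crosslinking, 10 were lower and none higher, against 6 without wt replicate 1, led by the lysyl oxidase LOXL2 (-0.81) and the prolyl hydroxylase P4HA1 (-0.59).

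Some marker lists of cells other than neurons were lower. Of 9 mesenchymal markers 7 were lower, and their summed level was 2718 to 3151 CPM in wt/wt and 1858 to 2261 CPM in Nterm/Nterm. VIM, which encodes the intermediate filament vimentin, was at 374, 352 and 335 CPM in wt/wt and 277, 267 and 255 CPM in Nterm/Nterm (log2 change -0.41, SE 0.05, adjusted p = 0.000456). The exception was THY1, which neurons also make, called higher at 0.19 but not without wt replicate 1 or without wt replicate 2 or without Nterm replicate 1 or without Nterm replicate 3. Of 12 smooth muscle and contractile genes 7 were lower, against 4 with a robust prior, 3 without wt replicate 1, 4 without wt replicate 2 and 11 with replicate number as a block. ACTA2, smooth muscle actin, was at -0.77, and MYH9, a non-muscle myosin, at -0.52. Of 2 endothelial and blood genes, CSF1R, a receptor of the macrophage lineage, was lower at -0.55, and CDH5 was at 0.12 (adjusted p = 0.617, not called). Several defining markers of fibroblasts, glia, blood and dividing cells, such as DCN, GFAP, PTPRC and MKI67, had no named transcript and were not analysed here. What part a change in other cells had in the results was not tested.

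Epithelial genes were abundant in these neuron cultures. The summed level of 17 of them was 7666 to 8636 CPM in wt/wt and 5773 to 7181 CPM in Nterm/Nterm, with 11 lower and none higher, against 3 without wt replicate 1 and 5 without wt replicate 2. KRT8 and KRT18, the paired simple-epithelial keratins, were at 3630.2, 3598 and 3191 CPM in wt/wt and 2799.6, 2992 and 2384 CPM in Nterm/Nterm, and 2001, 1977 and 1755 CPM in wt/wt and 1587, 1664 and 1317 CPM in Nterm/Nterm. KRT8 was lower at -0.35, not without wt replicate 1, and KRT18 at -0.33, not without wt replicate 1 or wt replicate 2. KRT19, another simple-epithelial keratin, was lower in all fits (log2 change -0.38, SE 0.07, adjusted p = 0.00364), as was CDH1, E-cadherin, at -0.35. In all 3 keratins the highest Nterm/Nterm value lay below the lowest wt/wt value.

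Among progenitor and cell cycle genes, more were lower than higher. Of 14 neural progenitor and radial glia markers 8 were lower and 2 higher. NOTCH1 was lower at -0.55, SOX9 at -0.47, SOX2 at -0.36 and GLI3, a transcription factor of the hedgehog pathway, at -0.55. The members that were higher were SOX1 and ID4, the latter at 0.31. Of 12 pluripotency genes 3 were lower, LIN28A (-0.51), SOX2 and CDH1, and 6 without Nterm replicate 2 and 7 with replicate number as a block. SOX2 and CDH1 are the same genes given above among progenitor and epithelial genes. Among 12 proliferation genes 5 were lower, against 3 without wt replicate 1 and 3 without wt replicate 2. HMGB2, a chromatin protein of dividing cells, was at -0.89 and TYMS, which makes thymidylate, at -0.52. Of 4 neural crest and Schwann cell genes 3 were lower, and 1 without wt replicate 1, with ETS1 at -0.38. Of 4 astrocyte and oligodendrocyte genes, GJA1 was lower at -0.59, a call lost without wt replicate 1 or wt replicate 2.

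**Figure D3:**
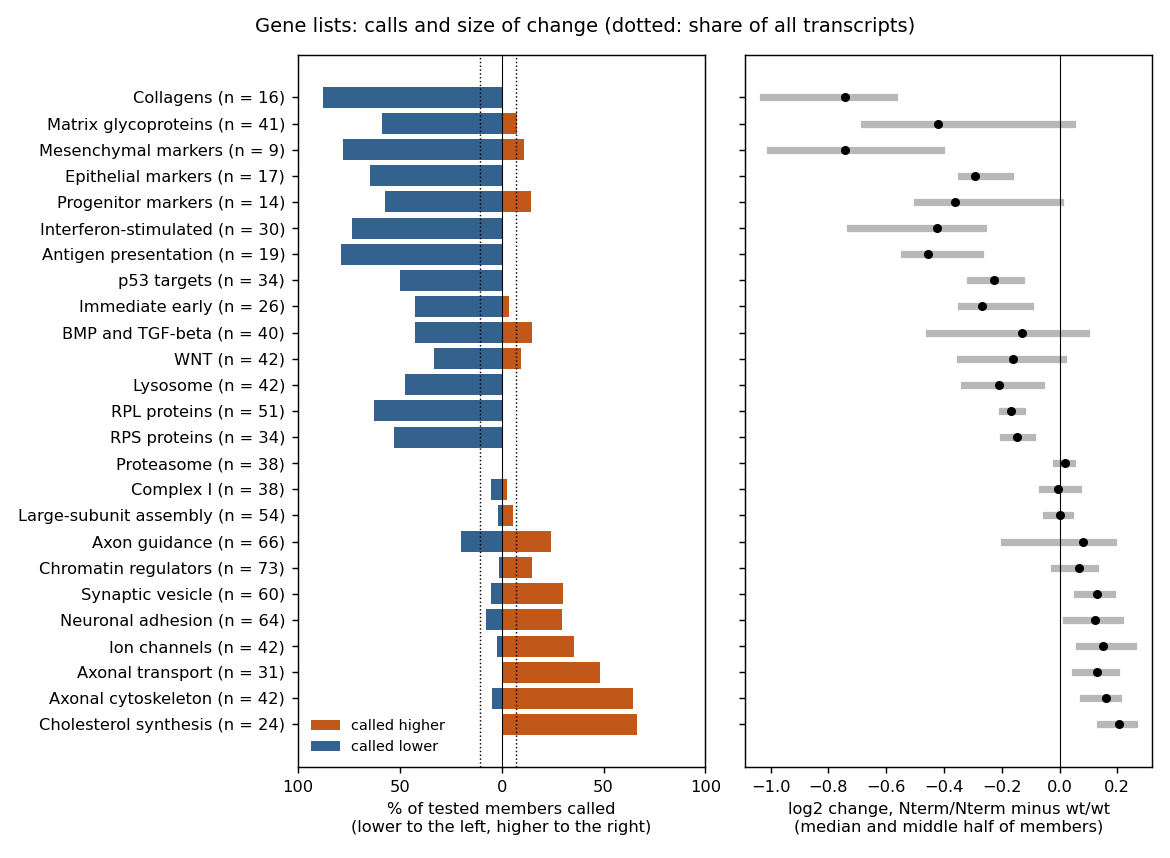
Left, percent of the tested members of 25 gene lists called lower (bars to the left) or higher (bars to the right) in Nterm/Nterm, with dotted lines at the shares of all transcripts (10.6% and 7.25%). Those shares are not matched to the level of each list. Right, median log2 change of the members (points) with their interquartile range (bars): collagen and mesenchymal lists lie furthest below 0 and cholesterol synthesis furthest above.

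Most interferon-stimulated and antigen presentation genes tested were lower. Interferon-stimulated genes are induced by signals from interferon receptors, and many cells keep a low tonic level of them. Of 30 such genes tested, 22 were lower and none higher, with a median log2 change of -0.42, against 14 without wt replicate 1 and 14 without wt replicate 2. GBP1 and GBP2, guanylate-binding proteins of host defence, were lower by -1.01 and -1.22. BST2, which tethers budding viruses, was at 27.9, 31.5 and 28.5 CPM in wt/wt and 15.9, 18.9 and 12.5 CPM in Nterm/Nterm (log2 change -0.90, SE 0.12, adjusted p = 0.000683). ISG15, a ubiquitin-like modifier, was at 52.5, 51.0 and 45.2 CPM in wt/wt and 39.4, 38.0 and 34.2 CPM in Nterm/Nterm (log2 change -0.41, SE 0.07, adjusted p = 0.00313). In both, all Nterm/Nterm libraries lay below all wt/wt libraries, with Nterm/Nterm replicate 3 the lowest. IFITM3, an entry inhibitor, was lower at -0.83, the antiviral GTPase MX1 at -0.71 and IFIT1, which binds foreign RNA ends, at -0.73. IFITM2 and IFITM3 are near-identical, so their split is uncertain.

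The antigen presentation pathway, which loads peptides on MHC class I, showed the same direction. Of 19 genes 15 were lower and none higher, with a median of -0.46, against 9 without wt replicate 1 and 9 without wt replicate 2. HLA-B, a class I heavy chain, was at 451, 434 and 386 CPM in wt/wt and 288, 291 and 213 CPM in Nterm/Nterm (log2 change -0.68, SE 0.10, adjusted p = 0.00121), and B2M, the light chain of every class I molecule, was at 272, 268 and 250.2 CPM in wt/wt and 192, 200.3 and 155 CPM in Nterm/Nterm (log2 change -0.53, SE 0.08, adjusted p = 0.00121). HLA-C and HLA-E were lower by -0.59 and -0.49, with the caveat that these genes are highly alike. The peptide-loading factor TAPBP was at -0.51, the proteasome activator PSME2 at -0.46 and CD74, the invariant chain of class II, at -1.10. Complement, cytokine and inflammatory genes gave 10 lower and none higher of 28, against 4 without wt replicate 1, 4 without wt replicate 2 and 17 with replicate number as a block. TGFB1 was at -0.82, CLU, the extracellular chaperone clusterin, at -0.50 and SOCS3, a brake on cytokine signalling, at -0.46.

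Stretches of immune gene promoters are shown because these genes fell together and the interferon-stimulated response element is their best known shared motif. A stand-in for it, GAAA followed by any 2 bases and GAAA again, was searched on both strands of the 250 bases upstream of each start site in RefSeq assembly GRCh38.p14. Capitals mark the match, or its reverse complement.
GBP1 (chr1:89065316-89065345, minus strand): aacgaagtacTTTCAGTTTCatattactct
BST2 (chr19:17405735-17405764, minus strand): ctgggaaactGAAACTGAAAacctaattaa
IFITM3 (chr11:320876-320905, minus strand): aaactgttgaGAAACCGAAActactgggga
IFIT1 (chr10:89392510-89392539, plus strand): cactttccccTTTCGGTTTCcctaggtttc
ISG15 (chr1:1013380-1013409, plus strand): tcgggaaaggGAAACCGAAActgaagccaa
B2M (chr15:44711369-44711398, plus strand): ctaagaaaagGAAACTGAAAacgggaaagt
TAPBP (chr6:33314079-33314102, minus strand): ggaggaaagtGAAAGTGAAAggag
PSME2 (chr14:24146619-24146648, minus strand): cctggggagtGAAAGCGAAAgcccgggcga
Among 6211 named genes with a single promoter window in the table, 139 held the motif (2.24%), of which 28 were called lower and 5 higher. In the interferon-stimulated list, 11 of the 18 genes with a window held it, and 8 of the 11 were called lower, beside 22 of all 30 genes of the list. IFIH1, IFI6 and IFIT5 also held it, and were at -0.30 (adjusted p = 0.0536, not called), 0.02 (adjusted p = 0.865, not called) and 0.07 (adjusted p = 0.585, not called). DESeq2 called IFIH1 lower (adjusted p = 0.037), as did edgeR with replicate number as a block. In the antigen presentation list, 6 of 11 held it, 5 of them called lower, beside 15 of all 19. With these shares beside each other, nothing is read from the motif about which members were called. The motif was picked after the values were seen, and a match is a description of the letters, with no bearing on whether a factor binds there.

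Among the stress lists other than the immune ones above, p53 targets had the most lower members. Targets of p53, the DNA damage regulator, were lower for 17 of 34 genes and higher for none, with a median of -0.23, against 8 without wt replicate 1 and 8 without wt replicate 2. CDKN1A, the cell cycle inhibitor p21, was at 1002, 946 and 882 CPM in wt/wt and 763, 795 and 656 CPM in Nterm/Nterm (log2 change -0.35, SE 0.07, adjusted p = 0.00449). GDF15, a stress cytokine, was lower at -0.60, the cell death gene BBC3 at -0.52 and the DNA repair gene DDB2 at -0.49, while MDM2, which degrades p53, was at -0.32 and not called without wt replicate 1 or wt replicate 2. Of 26 immediate early genes 11 were lower and 1 higher, against 7 without wt replicate 2 and 18 with replicate number as a block for the lower ones. Those higher were 0 without wt replicate 1, 0 without wt replicate 2, 2 without wt replicate 3, 2 without Nterm replicate 1 and 2 with replicate number as a block. The transcription factor gene JUNB was at -0.47, and ZFP36 and ZFP36L1, which promote decay of AU-rich mRNAs, were at -0.53 and -0.48. Of 28 hypoxia genes 8 were lower, against 5 without wt replicate 1, 5 without wt replicate 2 and 13 with replicate number as a block. No hypoxia gene was called higher by edgeR, against 2 without wt replicate 3, 1 without Nterm replicate 1, 2 without Nterm replicate 2 and 5 with replicate number as a block, 1 by DESeq2, 0 by limma-voom and 4 at an unadjusted p under 0.05. VEGFA was at -0.60 and the hexokinase HK2 at -0.54. Endoplasmic reticulum chaperone and unfolded protein genes gave 9 lower of 34, against 1 without wt replicate 1, 1 without wt replicate 2, 4 without Nterm replicate 3 and 15 with replicate number as a block. CREB3L2, which drives secretory pathway genes, was at -0.51.

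Integrated stress response targets showed little net change, with 4 of 28 higher and 2 lower, and 2 without wt replicate 1, 2 without wt replicate 2 and 8 with replicate number as a block. CHAC1, which degrades glutathione, was higher at 0.45, and VEGFA and DDIT4 (-0.44) were the lower members. Of 39 cytosolic chaperones 7 were higher and 4 lower. The higher count was 1 without wt replicate 1, 1 without wt replicate 2, 2 without Nterm replicate 1, 3 without Nterm replicate 3 and 14 with replicate number as a block, and the lower one 2 without wt replicate 1 and 2 without wt replicate 2. HSPB1, a small heat shock protein, was lower at -0.64. HSPA1A and HSPA1B, which encode the same HSP70 protein, went opposite ways at 0.52 and -0.26, and reads of such near-identical copies can be split between them. TXNIP, a thioredoxin inhibitor induced by glucose, was among the most precisely measured decreases, at 387, 384 and 364 CPM in wt/wt and 263, 252 and 218 CPM in Nterm/Nterm (log2 change -0.63, SE 0.06, adjusted p = 0.00013).

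Developmental signalling lists had members moving both ways. Of 40 BMP, TGF-beta and activin genes 17 were lower and 6 higher. The ligands TGFB1 and TGFB2 were at -0.82 and -0.54, the latent binding proteins LTBP1 and LTBP3 at -0.61 and -0.84, and the antagonist FST at -0.71. Target genes ID1 and ID3 were at -0.52 and -0.50, the latter with 73.7, 77.0 and 68.9 CPM in wt/wt and 51.6, 52.8 and 50.7 CPM in Nterm/Nterm. The count of 6 higher members was 1 without wt replicate 1, 1 without wt replicate 2, 3 without Nterm replicate 1 and 10 with replicate number as a block. Of 42 WNT pathway genes 14 were lower and 4 higher, against 6 without wt replicate 1 and 7 without wt replicate 2 for the lower ones and 1 without wt replicate 1, 1 without wt replicate 2, 2 without Nterm replicate 3 and 8 with replicate number as a block for the higher. Receptors ROR2 and FZD5 were at -0.70 and -0.48, WLS, which carries WNT proteins to the surface, at -0.62, the polarity cadherin CELSR1 at -0.67 and the antagonist SFRP1 at -0.65. APC, which marks beta-catenin for decay, was higher at 0.25.

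In the Notch pathway 8 of 29 genes were lower, against 4 without wt replicate 1 and 4 without wt replicate 2, and 2 higher, against 0 without wt replicate 1, 0 without wt replicate 2, 0 without Nterm replicate 3 and 8 with replicate number as a block. The receptors NOTCH1 and NOTCH3 were at -0.55 and -0.52, the ligand JAG1 at -0.40 and the coactivator MAML2 at -0.63. Of 19 Hippo genes 9 were lower and none higher, against 3 without wt replicate 1, 3 without wt replicate 2, 5 without Nterm replicate 3 and 14 with replicate number as a block. YAP1, the effector, was at -0.35 and its target CCN2 at -0.59, the latter not called with a robust prior (adjusted p = 0.0523). In the IGF, insulin and FGF list 9 of 30 were lower and 9 higher. The lower count was 2 without wt replicate 1 and 3 without wt replicate 2, and the higher one 2 without wt replicate 1 and 4 without wt replicate 2. IGF2 and its binding protein IGFBP2 (-0.65) were lower, and FGF9 and FGF13 were higher at 0.44 and 0.39. Retinoid genes gave 5 lower and none higher of 11, including the binding proteins CRABP1 (-0.52) and CRABP2 (-0.45) and the retinaldehyde dehydrogenase ALDH1A3 (-0.53).

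Lysosomal genes were lower for 20 of 42 members and higher for none, with a median of -0.21, against 11 without wt replicate 1 and 11 without wt replicate 2. The protease genes CTSC and CTSB were at -0.79 and -0.43, TPP1, a peptidase lost in a childhood neuronal storage disease, at -0.49, GAA, which digests glycogen, at -0.46 and the progranulin gene GRN at -0.42. NPC2, which moves cholesterol out of lysosomes, was at -0.37. Autophagy genes outside the lysosome gave 2 higher and 3 lower of 34. Those higher were 0 without wt replicate 1, 0 without wt replicate 2, 1 without Nterm replicate 1, 1 without Nterm replicate 2, 1 without Nterm replicate 3 and 5 with replicate number as a block, and those lower 0 without wt replicate 1, 0 without wt replicate 2 and 5 with replicate number as a block.

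Cholesterol synthesis genes went the other way. Of 24 tested, 16 were higher and none lower, with a median of 0.21, against 3 without wt replicate 1, 4 without wt replicate 2 and 9 without Nterm replicate 3. The increases were small. LSS, which closes the sterol ring, was at 163, 162 and 178 CPM in wt/wt and 206, 205 and 227 CPM in Nterm/Nterm (log2 change 0.34, SE 0.05, adjusted p = 0.00176), and CYP51A1, a demethylase, was higher at 0.24. The genotypes did not overlap for LSS, 1 of 20 such genes among the 24. Lipoprotein and lipid transport genes were lower for 8 of 19 and higher for 2. The lower count was 4 without wt replicate 1 and 5 without wt replicate 2, and the higher one 1 without wt replicate 1 and 4 with replicate number as a block. The endocytic receptor LRP2 was at -1.01 and the cholesterol exporter ABCA1 at -0.52, while LRP8, a reelin receptor, was higher at 0.38.

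Ribosomal protein mRNAs were slightly lower, while most other translation genes did not pass the test. Of 51 large-subunit genes 32 were lower and none higher, with a median of -0.17, and of 34 small-subunit genes 18 were lower and none higher, with a median of -0.15. The large-subunit count was 3 without wt replicate 1, 4 without wt replicate 2, 19 without Nterm replicate 2 and 21 without Nterm replicate 3. For the small subunit it was 2 without wt replicate 1, 3 without wt replicate 2, 10 without Nterm replicate 2, 9 without Nterm replicate 3 and 29 with replicate number as a block. RPL3, a core protein of the large subunit, was at 1113, 1061 and 1027 CPM in wt/wt and 956, 901 and 860.0 CPM in Nterm/Nterm (log2 change -0.24, SE 0.05, adjusted p = 0.00592), with no overlap of the genotypes. RPL28, RPS15A and RPS27 were also called in all leave-out fits, at -0.25, -0.25 and -0.27. The summed level of the large-subunit genes was 19747 to 21245 CPM in wt/wt and 17513 to 19160.2 CPM in Nterm/Nterm. Ribosomal protein genes have many pseudogene copies, so single values are uncertain.

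Large-subunit assembly factors, the group to which LLPH is assigned, gave 3 higher and 1 lower of 54, with a median of 0.00. The 3 were DDX31 at 0.29, NLE1 at 0.28 and WDR12 at 0.18, and the lower one was NPM3 at -0.38. Without wt replicate 1 or wt replicate 2 these 4 were not called, and WDR12 was called in no leave-out fit. DDX31 was also lost without Nterm replicate 1 or Nterm replicate 2, NPM3 without wt replicate 3 or Nterm replicate 3, and NLE1 without any library but Nterm replicate 2. DESeq2 called neither DDX31 (adjusted p = 0.0677) nor WDR12 (adjusted p = 0.0907). With replicate number as a block, 5 were higher and 2 lower. Small-subunit assembly factors gave 1 higher and none lower of 51, against 2 higher and 3 lower with replicate number as a block. Mitochondrial ribosomal proteins gave 2 lower of 77, against 0 without wt replicate 1, 1 without wt replicate 2, 1 without Nterm replicate 3 and 5 with replicate number as a block. Aminoacyl-tRNA synthetases gave 1 higher and 1 lower of 22, against 5 higher and 2 lower with the block. Initiation factors gave 4 higher and 5 lower of 45. Those higher were 0 without wt replicate 1, 1 without wt replicate 2, 2 without wt replicate 3, 1 without Nterm replicate 1, 0 without Nterm replicate 3 and 7 with replicate number as a block, and those lower 0 without wt replicate 1, 1 without wt replicate 2, 3 without wt replicate 3, 2 without Nterm replicate 3 and 11 with replicate number as a block. Of 16 elongation and termination factors 3 were lower, including EEF1A1, the most abundant called gene, at 8244, 8030.2 and 7885 CPM in wt/wt and 7703, 7020.5 and 7174 CPM in Nterm/Nterm (log2 change -0.14, SE 0.04, adjusted p = 0.0296). EEF1A1 was not called without wt replicate 1 or without wt replicate 2 or without Nterm replicate 2 or without Nterm replicate 3. Without wt replicate 1, no gene of the small-subunit assembly, mitochondrial ribosome, synthetase, initiation or elongation lists was called. The elongation factor count was 0 without wt replicate 1, 0 without wt replicate 2, 1 without Nterm replicate 2 and 6 with replicate number as a block. Proteasome genes gave no call in 38 by edgeR, DESeq2 or limma-voom, and 0 of them had an unadjusted p under 0.05. Of 38 complex I genes 1 was higher, NDUFA9 at 0.30, and 2 were lower. Those higher were 2 without wt replicate 3, 2 without Nterm replicate 2 and 4 with replicate number as a block, and those lower 0 without wt replicate 1, 1 without wt replicate 2, 1 without Nterm replicate 2 and 1 without Nterm replicate 3.

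Cytoskeletal and axonal transport genes of neurons were higher in small steps, while most members of the other neuronal lists were not called. Of 42 cytoskeletal and axonal genes 27 were higher and 2 lower, with a median of 0.16, against 5 without wt replicate 1, 6 without wt replicate 2, 15 without Nterm replicate 1 and 13 without Nterm replicate 3. NEFM and NEFL, the medium and light neurofilament chains, were at 3910.2, 3744 and 3953 CPM in wt/wt and 4732, 4569.6 and 4581 CPM in Nterm/Nterm (log2 change 0.26, SE 0.04, adjusted p = 0.00104), and 2695, 2615 and 2916 CPM in wt/wt and 3401, 3134 and 3603 CPM in Nterm/Nterm (log2 change 0.30, SE 0.05, adjusted p = 0.00338). Every Nterm/Nterm library lay above every wt/wt library for both. MAP1B, a microtubule-associated protein of growing axons, was at 2723, 2702 and 2819 CPM in wt/wt and 3201, 3079 and 3317 CPM in Nterm/Nterm (log2 change 0.22, SE 0.04, adjusted p = 0.00313). ACTL6B, the neuronal subunit of the BAF chromatin complex, was higher at 0.35 and DCX, doublecortin, at 0.26, the latter not without wt replicate 1. Of the 2 lower members, 0 without wt replicate 1 and 1 without wt replicate 2, PRPH was at -0.23. Of 31 axonal transport genes 15 were higher and none lower, against 2 without wt replicate 1 and 2 without wt replicate 2. The kinesins KIF21A and KIF3A were at 0.27 and 0.23.

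**Figure D4:**
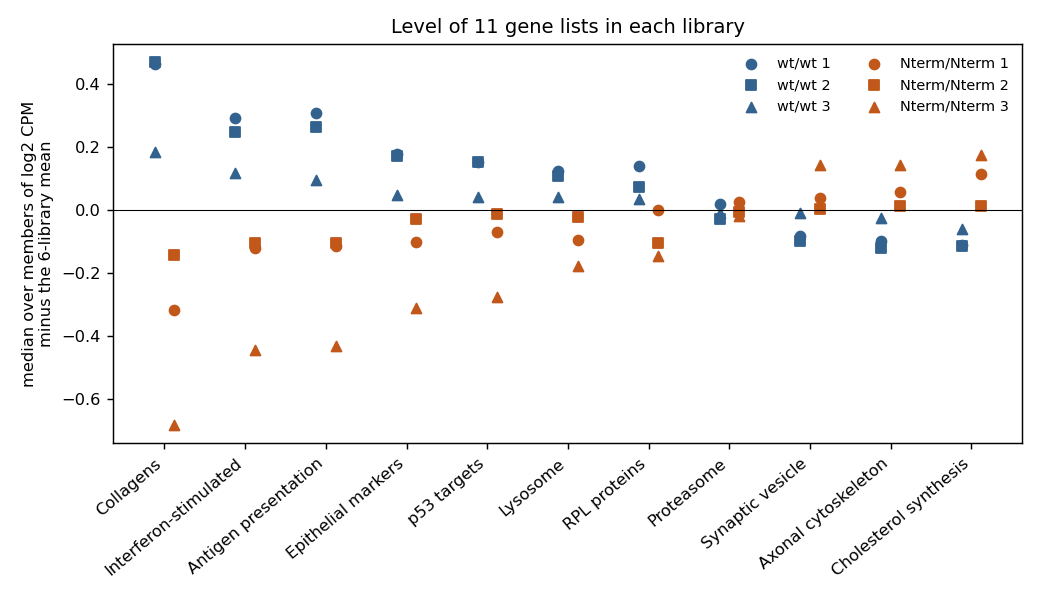
Level of 11 gene lists in each library: the median over members of log2 CPM minus that gene's mean over the 6 libraries, with genotype by colour and replicate number by shape. For collagen, immune, p53, lysosomal, epithelial, synaptic, cytoskeletal and cholesterol lists the genotypes do not overlap, Nterm/Nterm replicate 3 is the most extreme library and wt/wt replicate 3 is the wild-type library nearest to Nterm/Nterm.

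Synaptic and channel genes shared this direction in part. Of 60 synaptic vesicle and active zone genes 18 were higher and 3 lower. The higher count was 4 without wt replicate 1, 4 without wt replicate 2, 10 without Nterm replicate 3 and 39 with replicate number as a block, and the lower one 6 with replicate number as a block. SYT1, the calcium sensor of release, was higher at 0.23, CHGA, a dense-core vesicle protein, at 0.24 and CADPS, which primes such vesicles, at 0.27. The 3 lower members were the active zone scaffold PCLO (-0.43), the vesicle protein SV2B (-0.41) and the fusion protein VAMP2 (-0.21), each called in all leave-out fits. Of 26 transmitter-gated receptor channels 7 were higher and 1 lower, against 3 without wt replicate 1, 4 without wt replicate 2 and 13 with replicate number as a block for the higher ones. The lower member, P2RX3 at -0.13, was not called without wt replicate 1 or without wt replicate 2 or without wt replicate 3 or without Nterm replicate 1. GABRG3, GRIA3 and GRIK2, given above, had the largest increases. Of 42 voltage-gated and leak channels 15 were higher and 1 lower, against 1 without wt replicate 1, 3 without wt replicate 2, 8 without Nterm replicate 3 and 23 with replicate number as a block. The calcium channel gene CACNA1B was higher at 0.33, and CACNA2D3, an auxiliary calcium channel subunit, was lower at -0.34.

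Receptors, peptides and adhesion genes added further calls. Of 41 G protein-coupled receptor and signalling genes 10 were higher and 4 lower, and the higher count was 4 without wt replicate 1, 4 without wt replicate 2 and 18 with replicate number as a block. The lower one was 8 with replicate number as a block. PRLHR was at 20.8, 23.2 and 27.9 CPM in wt/wt and 36.1, 39.0 and 51.2 CPM in Nterm/Nterm, and ADCYAP1R1, the receptor of the peptide PACAP, was at 0.50. The regulators of G protein signalling split, with RGS8 at 0.42, RGS16 at -0.53 and RGS4 at -0.24. Of 26 neuropeptide and secreted neuronal genes 9 were higher and 2 lower, against 4 without wt replicate 1, 5 without wt replicate 2 and 5 without Nterm replicate 3 for the higher ones and 1 without wt replicate 1, 1 without wt replicate 2, 4 without Nterm replicate 2 and 6 with replicate number as a block for the lower. NTS, which encodes neurotensin, was lower at -0.26. Of 18 neurotrophin and GDNF family genes 7 were higher and 4 lower. SHC3, NTRK2, the BDNF receptor (0.36), and the GDNF receptors GFRA1 (0.31) and RET (0.29) were higher, and SHC1, the broadly expressed relative of SHC3, was lower at -0.49. The counts of this list were 4 without wt replicate 1 and 4 without wt replicate 2 for the higher ones, and 1 without wt replicate 1, 2 without wt replicate 2, 2 without Nterm replicate 1 and 2 without Nterm replicate 3 for the lower ones. Of 64 neuronal adhesion genes 19 were higher and 5 lower, against 7 without wt replicate 1, 7 without wt replicate 2, 12 without Nterm replicate 3 and 36 with replicate number as a block for the higher ones and 2 without wt replicate 1 and 2 without wt replicate 2 for the lower. TENM2, a teneurin, was at 61.0, 68.1 and 72.5 CPM in wt/wt and 90.8, 100.2 and 114 CPM in Nterm/Nterm (log2 change 0.60, SE 0.08, adjusted p = 0.000835).

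Axon guidance genes were divided. Of 66 tested, 16 were higher and 13 lower, and the higher count was 5 without wt replicate 1, 5 without wt replicate 2, 9 without Nterm replicate 3 and 25 with replicate number as a block. EPHA4 was higher, at 32.3, 38.2 and 43.6 CPM in wt/wt and 51.6, 57.2 and 67.1 CPM in Nterm/Nterm (log2 change 0.63, SE 0.11, adjusted p = 0.00287), and so was the ligand SEMA3A at 0.37. The semaphorin receptors NRP1, NRP2 and PLXND1 were lower at -0.38, -0.65 and -0.61. The ephrin receptors EPHB3, EPHB4 and EPHA2 were lower at -0.59, -0.41 and -0.38, and the cue NTN1, netrin 1, at -0.50.

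Transcription factors of neurons gave 17 higher and 5 lower of 55. Those counts were 4 without wt replicate 1, 6 without wt replicate 2, 9 without Nterm replicate 1 and 10 without Nterm replicate 3 for the higher ones, and 3 without wt replicate 1 and 3 without wt replicate 2 for the lower ones. ISL1, a factor of sensory and motor neurons, was higher at 0.33, with CUX2 at 0.33, TSHZ3 at 0.31 and ONECUT3 at 0.26. NEUROD1, a proneural factor acting downstream of neurogenins, was lower at -0.70, as were EYA2 at -0.91 and NR2F2 at -0.41. Of 34 neuronal RNA-binding protein genes 6 were higher and 2 lower, and the higher count was 2 without wt replicate 1, 2 without wt replicate 2, 10 without Nterm replicate 2 and 20 with replicate number as a block. The lower one was 0 without wt replicate 1, 0 without wt replicate 2, 1 without Nterm replicate 1 and 1 without Nterm replicate 3. ELAVL2 and RBFOX1, a stability factor and a splicing factor of neurons, were at 0.28 and 0.22. Of 73 chromatin genes 11 were higher and 1 lower, against 2 without wt replicate 1, 3 without wt replicate 2, 7 without Nterm replicate 1, 6 without Nterm replicate 3 and 23 with replicate number as a block for the higher ones. The lower member, SMARCA2 at -0.24, was not called without wt replicate 1 or without wt replicate 2 or without Nterm replicate 1 or without Nterm replicate 3. CHD5, a neuronal remodeller, was at 0.59. Among 381 genes with ZNF or ZFP symbols, 36 were higher and 18 lower. The higher count was 11 without wt replicate 1, 13 without wt replicate 2, 20 without Nterm replicate 3 and 70 with replicate number as a block, and the lower one 9 without wt replicate 1 and 9 without wt replicate 2. Besides ZNF667 and ZNF471, ZNF506 was lower at -1.03, and ZNF300 was higher at 0.49. That symbol list also takes in proteins of other kinds, such as the mRNA decay factors ZFP36 and ZFP36L1.

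Changes were also summed as levels. Summed over all called transcripts, named and unnamed, mean levels rose by 23925 CPM and fell by 32944 CPM in Nterm/Nterm. The 12 largest gains among named transcripts summed to 4186 CPM and were led by NEFM and NEFL, with TUBA1A, MAP1B and DCX among them. TUBA1A, an alpha tubulin, was at 4703, 4665 and 4941 CPM in wt/wt and 5264, 5065 and 5628 CPM in Nterm/Nterm (log2 change 0.16, SE 0.04, adjusted p = 0.0263), and was not called without wt replicate 1 or without wt replicate 2 or without Nterm replicate 1 or without Nterm replicate 3. Of these 12, 3 were called in all leave-out fits. The 12 largest losses among named transcripts fell by 4847 CPM in sum. They included EEF1A1, KRT8, FN1, COL1A2, KRT18, MYH9, EEF2, CDKN1A and FTH1. Of them, 5 were called in all leave-out fits. FTH1, the heavy chain of the iron store ferritin, was at 1976, 1935 and 1918 CPM in wt/wt and 1787, 1764 and 1696 CPM in Nterm/Nterm, and EEF2, an elongation factor, was at -0.16. Neither FTH1 nor EEF2 was called without wt replicate 1 or wt replicate 2.

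Transcripts without a gene name were rarer and gave fewer calls. Their median level was 2.58 CPM, against 43.8 CPM for named ones, and 384 of 3806 were called (10.1%), 95 higher and 289 lower. The median size of their called changes was 0.73, against 0.29 for named transcripts. Of the 140 called changes over 2-fold, 103 were in unnamed transcripts. ENST00000218316 had 3, 0 and 3 counts in the wild-type libraries against 124, 98 and 118 in Nterm/Nterm (log2 change 5.99, SE 0.38, adjusted p = 3.5e-06), close to absent from wt/wt. ENST00000382448 had 0, 0 and 40 counts in the wild-type libraries against 122, 121 and 128 in Nterm/Nterm (log2 change 3.47, SE 0.65, adjusted p = 0.00451), and wt/wt replicate 3 was the sole wild-type library with reads. Without it the fitted change was 10.04, again set by the prior count. ENST00000234396 had 222, 181 and 148 counts in the wild-type libraries against 41, 48 and 24 in Nterm/Nterm (log2 change -2.03, SE 0.25, adjusted p = 0.000475), and ENST00000307662 had 98, 132 and 131 counts in the wild-type libraries against 41, 31 and 38 in Nterm/Nterm (log2 change -1.47, SE 0.21, adjusted p = 0.00121). All 4 were called in every leave-out fit, but ENST00000382448 was called neither by DESeq2 (adjusted p = 0.316) nor with a robust prior in edgeR (adjusted p = 0.085).

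Footprint libraries of the same genotypes were set beside the RNA values. In them 1800 of 13566 transcripts were called (13.3%). Of the 60 named genes chosen as the 30 largest RNA increases and 30 largest decreases with at least 5 CPM and no overlap, 59 were tested in footprints, and 57 were called in the same direction. Had the genotype tags been followed in place of the titles, these footprint changes would have had the opposite sign. ZNF667 had a footprint log2 change of -7.64 (SE 0.30, adjusted p = 2.6e-13), PCDHA10 of -6.78 (SE 0.16, adjusted p = 2.71e-17) and TCEAL5 of 6.80 (SE 0.24, adjusted p = 4.79e-14). For PCDHB5 the footprint change was -5.96 (SE 0.21, adjusted p = 4.79e-14), further below 0 than its RNA change of -2.33, and the authors' deposited table gives a translational efficiency ratio of 0.0940. Of 2546 called RNA transcripts tested in footprints, 1180 were called the same way and 2 the opposite way. PCDHB9 was 1 of the latter, lower in RNA at -0.29 and higher in footprints at 0.69 (SE 0.14, adjusted p = 0.00207).

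Ribosomal protein genes, lower in RNA, showed little change in footprints, as did some single genes of other lists. Of the 51 large-subunit ribosomal protein genes, 1 was called lower in footprints, with a median footprint change of 0.09, against -0.17 in RNA. For the 34 small-subunit genes the median footprint change was 0.10, against -0.15 in RNA. RPL3 had a footprint change of 0.07 (SE 0.07, adjusted p = 0.564), KRT8 of -0.01 (SE 0.10, adjusted p = 0.945), CDKN1A of -0.06 (SE 0.09, adjusted p = 0.694) and VIM of -0.06 (SE 0.08, adjusted p = 0.634). KRT8, CDKN1A and VIM do not stand for their lists. In footprints 3 of 17 epithelial genes were called lower (median -0.16) and 6 of 34 p53 targets (median -0.14). Of 9 mesenchymal markers 5 were called lower in footprints (median -0.67). The collagen list had 13 of 16 genes called lower in footprints, with a median of -0.70, and the interferon list 20 of 29, with a median of -0.42. Whether the 2 assays differ for these lists was not tested here.

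**Figure D5:**
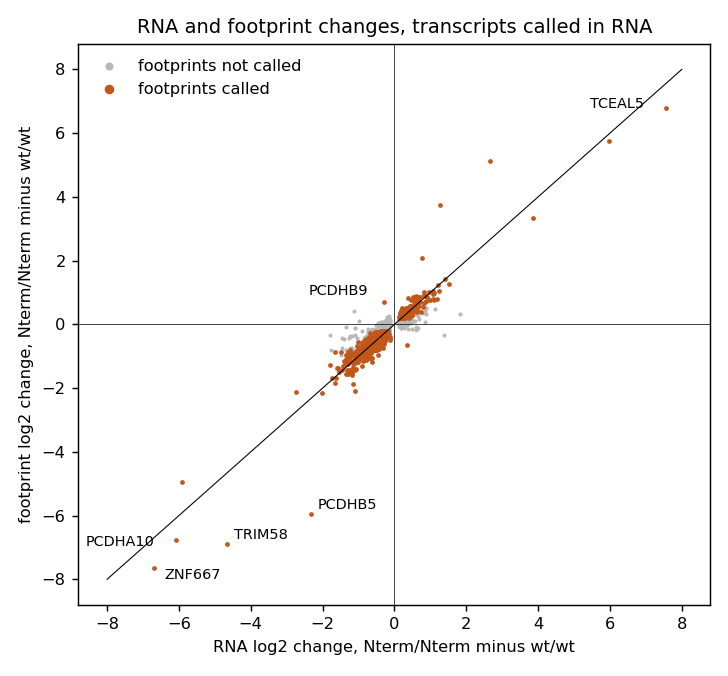
Footprint log2 change against RNA log2 change (both Nterm/Nterm minus wt/wt) for transcripts called in RNA and tested in footprints, coloured by whether the footprint change was called; the line marks equal change. Most points follow the line, PCDHB5 and TRIM58 lie below it and PCDHB9 lies on the opposite side of 0.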

How the data were processed

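RNA of 6 libraries of H1-derived neurons, 3 per genotype, was analysed, with 6 footprint libraries set beside them. The authors deposited 1 table of counts per transcript with gene symbols, and the submitters' processing notes list Salmon 1.4.0, Bowtie2 2.3.4.3, UMI-tools 1.0.1, cutadapt 2.4, limma, edgeR and build GRCh37, without saying what each was used for. Ratios of translational efficiency came from the authors' deposited table of fold values. All value columns were mapped to samples by their names, and 0 were left unmapped.

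Counts were used as deposited. Transcripts were filtered with edgeR 4.0.16 (filterByExpr, minimum count 10) in R 4.3.3, scaled by TMM and tested by genotype with the two-sided quasi-likelihood test. P-values were adjusted by Benjamini-Hochberg over all 14659 transcripts, with a threshold of 0.05. CPM are TMM-normalised, ± is the SD over 3 libraries, and SE is the log2 change divided by the root of F. Counting intervals (95%) cover counting error only. The table was processed with Python 3.11.15, numpy 2.4.6, pandas 2.3.3, scipy 1.17.1 and matplotlib 3.10.9.

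Alternatives were RLE and upper-quartile scaling, other filters, DESeq2 1.42.0, limma 3.58.1 (voom), a robust prior, thinning to the smallest library, glmTreat, leaving out each library, and replicate number as a block. Same-numbered libraries of the 2 genotypes deviated together over 11827 transcripts of at least 5 CPM (r = 0.198, 0.205 and 0.369, against -0.311 to 0.160 for the other pairs). Over all 14659 transcripts the correlations of same-numbered libraries were 0.0860, 0.103 and 0.100. The labels do not say that a number marks a shared culture. The main fit, from which the calls come, therefore used genotype only and no pairing, and the block was an alternative. The closest pair of RNA libraries had identical counts in 16.2% of transcripts. On simulated counts for the 14659 transcripts the fit recovered 50 of 50 transcripts lowered by a log2 of 1, 49 of 50 raised by 1, 22 of 50 lowered by 0.32 and 28 of 50 raised by 0.32, and called 12 of 14459 unchanged ones. Those counts were drawn for each transcript separately from wt/wt means, and the rarest transcripts were not among the changed ones. Shifts that many transcripts of a library share were not simulated, so the numbers do not cover them. Far fewer transcripts were changed than were called in the data, which makes the adjusted threshold stricter in the simulation.

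The members and the 68 gene lists were chosen with earlier results of these data known. Genes were named by a rule: LLPH, the 30 largest named increases and decreases with at least 5 CPM and no overlap, the 15 largest changes relative to SE, the 12 largest gains and losses in CPM, up to 3 members each way per list (all where 12 or fewer were tested), 4 unnamed transcripts, and members of the ZNF, protocadherin, TCEAL and BEX families. Other list members, neighbours, gene pairs and motifs were chosen after their values were seen. Gene order and promoter sequences came from RefSeq assembly GRCh38.p14, matched by symbol for 10841 genes. No coordinates of the deposited tables were used. Some genes of the lists are not reported here by name.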

Additional observations from a re-analysis of the deposited data

How the results depend on the processing

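Under RLE or upper-quartile scaling, no filter, a filter of 5 CPM, DESeq2, limma-voom, a robust prior or thinning to the smallest library, 2455 to 2773 transcripts were called, against 2624. Calls changing more than 2-fold fell from 140 to 50 with the filter of 5 CPM, and 304 transcripts passed glmTreat against a 1.2-fold change, whatever their size. Leaving out 1 library gave 841 to 2851 calls, 230 to 1136 of them higher and 611 to 1715 lower, with 84 to 182 over 2-fold, and the same-direction footprint count of 57 lay between 52 and 58. The low ends came without wt replicate 1, or for higher calls also wt replicate 2 (293). With the replicate block 4504 transcripts were called, 2097 higher and 2407 lower, and 171 changed more than 2-fold. The cause of these shifts was not tested. Among 241 named genes no direction reversed in any of these fits where the gene was called. Leaving out 1 library ended a call in 98 of 1446 gene and fit combinations, for 35 genes, and the settings other than the block ended 13 of 1927, for 9 genes. The block ended no named call and added 2. Of list counts, 189 of 804 fell and 20 rose by more than 1.5 times with 1 library left out, and 57 of 134 rose with the block. The other settings moved 17 of 1072, among them neuronal RNA-binding genes called higher (10 by DESeq2, against 6) and chromatin genes called lower (3 with a robust prior, against 1). Of 402 list medians with 1 library left out, 38 moved by more than their spread. With libraries of 18944427 counts or more, a log2 change of 0.32 was recovered for 22 or 28 of 50 simulated transcripts, so a change of that size can go uncalled in such a fit. Far fewer transcripts were changed there than the 2624 called in the data. Adjustment is stricter when fewer transcripts differ, so these numbers do not give the share that goes uncalled in the data.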

Other observations

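Transporters of ions and amino acids moved both ways. Of 43 tested, 13 were higher and 7 lower. The higher count was 4 without wt replicate 1, 5 without wt replicate 2 and 7 without Nterm replicate 3, and the lower one 3 without wt replicate 1, 2 without wt replicate 2 and 4 without Nterm replicate 1. The glycine transporter gene SLC6A9 was higher by a log2 of 0.52, the neutral amino acid carrier SLC1A4 by 0.34 and ATP1B1, the beta subunit of the sodium pump, by 0.27. SLC16A3, which exports lactate, was lower at -0.53, and the creatine transporter gene SLC6A8 at -0.39. All 5 were called in each fit that left out 1 library. Of 20 imprinted genes 5 were lower and 2 higher, with a median of 0.04. Those counts were 1 without wt replicate 1 and 3 without wt replicate 2 for the lower ones, and 0 without wt replicate 1, 0 without wt replicate 2, 1 without Nterm replicate 3 and 6 with replicate number as a block for the higher ones. IGF2 was the imprinted gene called lower in all of the leave-out fits. PHLDA2, a growth-restraining gene of the same imprinted region, was at -0.50 and not called without wt replicate 1, and PEG10 was at 0.04 (adjusted p = 0.624, not called).

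Called genes lying side by side were counted in the gene order of RefSeq assembly GRCh38.p14. Runs of 3 or more adjacent tested genes called in the same direction numbered 38, of which 28 were lower and 10 higher, and the longest held 4 genes. Of all named transcripts, 11.7% were called lower and 8.92% higher. How many runs these shares alone would give was not tested, and nothing is read from the counts of runs. The longest runs included the desmosomal cadherin genes DSC3 (-0.29), DSC2 (-0.32), DSG3 (-0.35) and DSG2 (-0.43), none of which was called without wt replicate 1. Without wt replicate 2, DSG2 was still called and the others were not, and with a robust variance prior in edgeR DSG2 was not called (adjusted p = 0.074). Over windows of 41 neighbouring genes the median log2 change lay between -0.101 and 0.106.

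The letters of other promoter motifs were counted in the same 250 bases. CCAAT was found in 12 of the 14 cholesterol synthesis genes with a window, against 36.2% of the 6211 named genes with one. Of those 12 genes 7 were called higher, beside 16 of all 24 genes of the list. TCACGTGA, the core of the lysosomal gene element, was found in 4 of 23 lysosomal genes, against 2% of all. Of those 4 genes 2 were called lower, beside 20 of all 42 genes of the list. Both motifs were picked after the values were seen, and nothing is read from them about which members were called.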
